A study of Mus musculus with 4 samples.

Results

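Open chromatin around 5 mouse transcription factor genes, Tox, Tox2, Satb1, Zeb1 and Zeb2, was read from ATAC-seq peak lists of DN3 thymocytes with and without EpCAM on their surface. The members are these listed genes, and the measured units are the peaks overlapping each gene span on mm10 plus 100 kb on each side. Peaks of the 4 lists that overlapped by at least 1 bp were merged into regions. The 5 loci held 50 of the 36224 regions of the series and are 5 of 21883 protein-coding genes.

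ATAC-seq marks open DNA by letting a transposase insert adapters into it, and DN3 cells are CD4- CD8- thymocytes at the stage of T cell receptor beta rearrangement. The cells came from the thymus of wild-type mice and were sorted by flow cytometry. They were then split by magnetic beads after EpCAM, an adhesion molecule, had been bound by a biotin-coupled antibody. The selected cells are the EpCAM-positive fraction and the unlabelled cells the EpCAM-negative fraction, so only the former carry antibody and beads. The labels name no other treatment. Each fraction has 2 libraries, numbered 1 and 2, and the labels do not say whether they came from separate mice. The spread between them may therefore be technical. The sources used here do not give age, strain or number of animals.

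TOX and TOX2 are related proteins that bind DNA through an HMG box. TOX is needed for CD4 T cells to form in the thymus and for the persistence of exhausted T cells, and TOX2 acts in follicular helper T cells and natural killer cells. SATB1 binds AT-rich DNA, folds chromatin in thymocytes and is needed for thymocytes to mature past the double-positive stage. ZEB1 and ZEB2 are zinc-finger proteins that mostly repress genes through E-box sequences, among them genes of epithelial adhesion such as E-cadherin. Loss of ZEB1 depletes early thymocytes, whereas ZEB2 is best known in natural killer, dendritic and effector T cells.

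The lists held 24598 to 29030 peaks. A very low quantile of the local background over the peaks of each list was taken as a relative measure of depth. It was 0.388 and 0.383 fragments in EpCAM-positive cells against 0.290 and 0.286 in EpCAM-negative cells. The sources used here do not give read totals. All 4 lists had a peak over an annotated start of 5 of 10 DN3 marker genes, namely Il2ra, Cd3e, Cd3g, Notch1 and Lck, against 30.2% of all genes with an annotated start. The other 5, Ptcra, Rag1, Rag2, Bcl11b and Tcf7, lacked such a peak in at least 1 list. The starts of B cell (0 of 3), myeloid and dendritic (0 of 5), erythroid and megakaryocyte (0 of 5) and gamma-delta T cell (0 of 2) markers had no peak in any list. Thymic epithelial markers had 2 of 7 starts open in all 4 lists, Aire and Cldn4, and natural killer and innate lymphoid markers 1 of 4, Nfil3. These marker counts cover only genes with a RefSeq start window, and the part of other cell types in the results below was not tested.

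The height of a peak is given here as summit fragments, the pileup at its summit solved from the fold and −log10 p of the authors' peak caller. Scaled summit fragments are these divided by a factor per library (1.09 and 1.13 for EpCAM-positive, 0.909 and 0.892 for EpCAM-negative). Regions are numbered within each locus from its lowest coordinate. Of the 50 regions, 18 (36.0%) were called in all 4 libraries, against 46.3% of all regions, and 20 (40.0%) in 1 library, against 29.8%. EpCAM-positive-only regions, called by both EpCAM-positive libraries and by no EpCAM-negative library, numbered 2 (4.0%, against 4.4% of all regions). EpCAM-negative-only regions also numbered 2 (4.0%, against 1.72%). Another 7 were called in 3 libraries and 1 in a single library of each fraction. Of the 20 regions seen in 1 library, 15 belonged to EpCAM-positive and 5 to EpCAM-negative libraries, and over the whole series 58.8% of such regions were EpCAM-positive. These are counts without a test, since 2 lists against 2 cannot give a two-sided exact permutation p below 0.33 for a region. The lowest −log10 q of the lists was 2.07 and 2.023 for EpCAM-positive and 1.323 and 1.335 for EpCAM-negative. A weak peak could therefore enter an EpCAM-negative list and not an EpCAM-positive one. Counts of regions and peaks by list rest on these unlike limits.

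**Figure D1:**
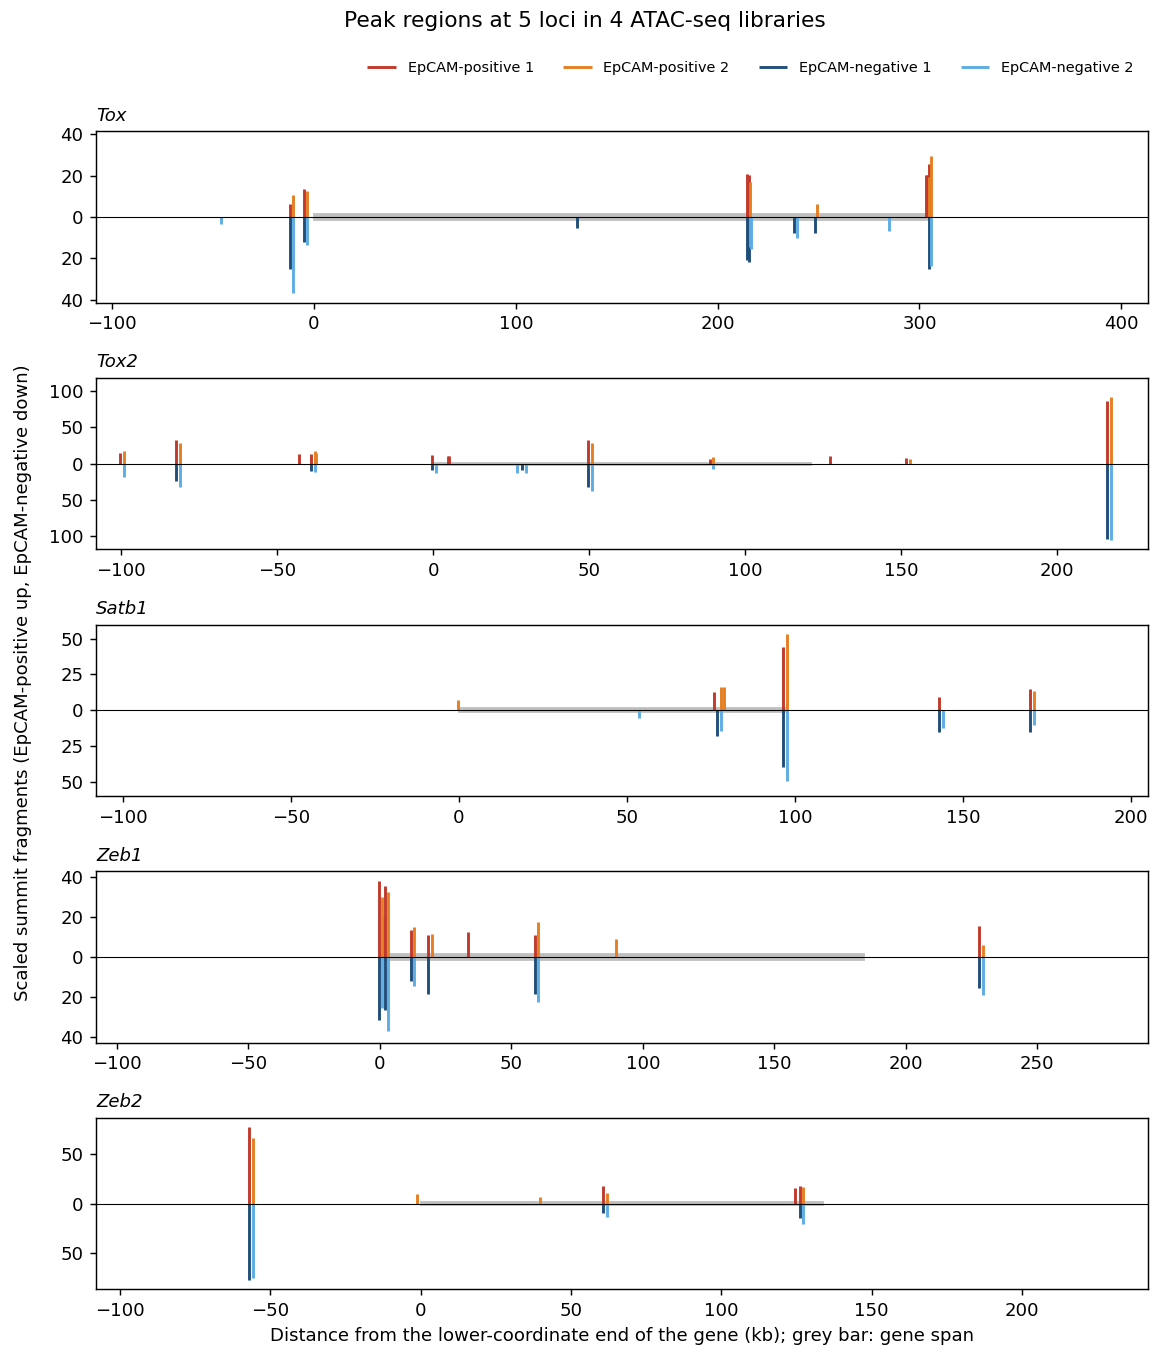
Peak regions at the 5 loci, 1 panel per gene. The x axis is the distance in kb from the lower-coordinate end of the gene, and the grey bar is the gene span. Each line stands at the summit of a merged region, taken from its peak of highest −log10 q. Line height is the scaled summit fragments of a library, drawn upward for the EpCAM-positive and downward for the EpCAM-negative libraries. Paired lines are set slightly apart so that both show. Below the Tox span, the region at 11.1 kb reaches 25.3 and 37.0 in the EpCAM-negative libraries and 6.4 and 10.7 in the EpCAM-positive ones.

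The clearest difference lay outside Tox. Tox occupies chromosome 4 from 6686353 to 6991557 (gene ID 252838), and its window held 12 regions, 4 of them called in all 4 libraries. Tox region 2, at chr4:6674942-6675454, has its summit 11118 bp below the gene span. EpCAM-positive replicates 1 and 2 reached 7 and 12 summit fragments there, while EpCAM-negative replicates 1 and 2 reached 23 and 33. Both EpCAM-negative libraries lay above both EpCAM-positive ones. After scaling, the means were 8.52 ± 3.0 and 31.1 ± 8.26 (SD, n = 2 per fraction), 3.65 times higher in the EpCAM-negative fraction. The log2 difference, EpCAM-positive minus EpCAM-negative, was -1.77 with a standard error of 0.31 (95% interval -2.39 to -1.15, limma adjusted p = 0.00331). In a bulk library, fewer open cells and less opening per cell cannot be told apart.

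The same test, limma on the log2 of scaled summit fragments plus 1, covered all 16761 regions called in 4 libraries and adjusted their p-values together by the Benjamini-Hochberg method. It called 90 of them (0.537%), 54 lower in EpCAM-positive libraries (0.322%) and 36 higher (0.215%). Tox region 2 had the lowest log2 difference of all 16761 and had rank 5 by p. By log2 difference it had rank 10 without EpCAM-positive replicate 1 and rank 6 without EpCAM-negative replicate 2. The call was lost without EpCAM-positive replicate 1 (log2 difference -1.44, limma adjusted p = 0.115), with unscaled fragments (-1.49, limma adjusted p = 0.121), with limma's variance prior not tied to height (-1.77, limma adjusted p = 0.0926) and after quantile normalization (-1.77, limma adjusted p = 0.327). Each of the other 3 libraries could be left out and the call kept, with limma adjusted p from 0.000414 to 0.0428.

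The authors' own values for Tox region 2 had the same order. Their −log10 q was 3.69 and 9.31 for EpCAM-positive against 22.1 and 33.7 for EpCAM-negative peaks, and the fold over local background was 4.72 and 7.62 against 12.7 and 16.01. The summit fragments were solved from this fold and −log10 p, and −log10 q follows from −log10 p. The common order is thus not separate support for the difference. Peak widths were alike, with 410 and 427 bp against 398 and 357 bp, and the 4 summits lay within 68 bp of each other. The local background, solved with the fragments, was 0.696 and 0.706 against 0.896 and 1.124 fragments. Its ratio of EpCAM-positive to EpCAM-negative, 0.69, was at percentile 0.1 of all regions called in 4 libraries, whose median ratio was 1.38. This background can include the region's own fragments, so it is not a separate measurement.

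The next region toward the gene did not show that difference. Tox region 3, at chr4:6681893-6682401, lies 4208 bp below the gene and 6910 bp from the summit of region 2. It had 15 and 14 summit fragments in EpCAM-positive cells against 11 and 12 in EpCAM-negative cells. The scaled ranges overlapped, and the log2 difference was 0.03 (95% interval -0.57 to 0.64, limma adjusted p = 0.978). The difference between the 2 regions was not itself tested.

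Inside Tox, 9 regions had their summit. Tox region 5, at chr4:6901507-6901825, had 23 and 19 summit fragments in EpCAM-positive cells against 19 and 13 in EpCAM-negative cells (log2 difference 0.10, 95% interval -0.49 to 0.70). The adjacent region 6, at chr4:6901838-6902602, had 22 fragments in EpCAM-positive replicate 1 and 20 and 14 in the EpCAM-negative libraries, and no peak in EpCAM-positive replicate 2. Tox region 7, at chr4:6924793-6925055, was EpCAM-negative-only. It had 7 and 9 summit fragments, and the nearest EpCAM-positive peak was 9859 bp away. This region stayed EpCAM-negative-only at a −log10 q of at least 5 and with lists of equal length. Regions 4, 8 and 9 of the gene body had 5 to 7 fragments in 1 or 2 libraries.

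At the higher-coordinate end of Tox, the peak area was called over more bases in the EpCAM-positive libraries. Between 6989906 and 6991643, peaks covered 1241 and 1025 bp in the EpCAM-positive libraries and 308 and 698 bp in the EpCAM-negative ones. Region 12, at chr4:6990883-6991643 with its summit 85 bp from the gene end, had 28 and 33 summit fragments against 23 and 21. After scaling these were 25.61 and 29.28 against 25.3 and 23.53, so both EpCAM-positive libraries lay above both EpCAM-negative ones by a small margin. The log2 difference was 0.16 (95% interval -0.37 to 0.69, limma adjusted p = 0.845). Summits of the 4 libraries lay up to 407 bp apart, so the heights compared come from different positions. The EpCAM-positive-only region 11, at chr4:6990604-6990867, had 22 fragments in each EpCAM-positive library. Its nearest EpCAM-negative peak was 64 bp away, and when peaks within 500 bp were joined it became part of a single region called in all 4 libraries.

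Tox2 had the most regions of the 5 loci and no called difference. It occupies chromosome 2 from 163203058 to 163324172 (gene ID 269389), and its window held 15 regions, 4 of them in all 4 libraries. The gene start was weakly open. Region 6, at chr2:163203037-163203486, had 13 summit fragments in EpCAM-positive replicate 1 and 8 and 11 in the EpCAM-negative libraries, and was not called in EpCAM-positive replicate 2. RefSeq (GRCm38.p6) lists 5 start windows for Tox2, from 250 bases before to 50 after a start, and 2 of them overlapped this region. The bases just before the gene span are shown because the region begins among them; capitals mark a match to GGGCGG, the GC box. They hold 4 matches, and 71.8% of their bases are G or C, against a median of 51.4% over all start windows cut to the same length.
Tox2, chr2:163202877-163203057, plus strand: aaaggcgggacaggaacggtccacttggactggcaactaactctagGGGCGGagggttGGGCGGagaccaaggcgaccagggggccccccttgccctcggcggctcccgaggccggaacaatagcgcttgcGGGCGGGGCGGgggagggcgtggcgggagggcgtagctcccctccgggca

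Most other Tox2 regions were weak and were called in some libraries. The strongest one inside the gene, region 11 at chr2:163253098-163253891, had 35 and 32 summit fragments in EpCAM-positive cells against 29 and 34 in EpCAM-negative cells. After scaling these were 32.01 and 28.39 against 31.89 and 38.1 (log2 difference -0.20, 95% interval -0.69 to 0.29). Without scaling the log2 difference was 0.089. Region 4, at chr2:163164477-163164731 and 38440 bp below the gene, had 14 and 20 against 9 and 10. Its groups did not overlap, yet the log2 difference of 0.48 did not pass (95% interval -0.13 to 1.09, limma adjusted p = 0.521). Region 2, at chr2:163120740-163121760, had 35 and 32 against 22 and 29 (log2 difference 0.10).

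Both kinds of group-only region occurred at Tox2. The EpCAM-negative-only region 10, inside the gene at chr2:163232109-163232447, had 8 and 11 summit fragments, and no EpCAM-positive peak lay within 20735 bp. It was lost at a −log10 q of at least 5. The EpCAM-positive-only region 14, at chr2:163355183-163355523, had 8 and 7 fragments and lay 31121 bp above Tox2, inside the neighbouring gene Jph2. With a −log10 q of at least 5, or with lists of equal length, only EpCAM-positive replicate 1 still called it. The tallest region of the window, region 15 (94 and 104 against 95 and 94 fragments), was 178 bp from the end of another gene, Oser1. Its scaled values were 85.96 and 92.26 against 104.48 and 105.35, with a log2 difference of -0.23 (95% interval -0.57 to 0.10). Without scaling that difference was 0.065.

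Among protein-coding genes, 24.4% had an EpCAM-positive-only and 8.1% an EpCAM-negative-only region in their window, and 3.2% had both, as Tox and Tox2 did. Their relative Tox3 had 2 regions in its window and 0 called in all 4 libraries. Tox4, another relative, had 7 of 10 in all 4, with log2 differences from -0.22 to 0.47 and a lowest limma adjusted p of 0.36.

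Satb1 had the tallest region at a gene start or end of the 5 genes and no called difference. It occupies chromosome 17 from 51736187 to 51833290 (gene ID 20230), and its window held 8 regions, 2 of them in all 4 libraries. Region 6, at chr17:51832780-51833506, covers the outermost start of the gene, with its summit 145 bp from it. It had 48 and 60 summit fragments in EpCAM-positive cells against 36 and 44 in EpCAM-negative cells. After scaling these became 43.9 and 53.2 against 39.6 and 49.3, which overlap. The log2 difference was 0.13 (95% interval -0.31 to 0.56, limma adjusted p = 0.853).

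RefSeq lists 5 start windows for Satb1, and 2 overlapped region 6. The 3 others, further inside the gene, overlapped no region, and the nearest regions were 298 to 5942 bp away. The 250 bases before the outermost start are shown because region 6 is the tallest over a start window of Tox2, Satb1 or Zeb2. Start windows of Tox and Zeb1 were not compared. Capitals mark a match to GGAAG, the core letters of ETS factor sites. There is 1 such match, which 64.1% of all start windows also hold.
Satb1, chr17:51833291-51833540, minus strand: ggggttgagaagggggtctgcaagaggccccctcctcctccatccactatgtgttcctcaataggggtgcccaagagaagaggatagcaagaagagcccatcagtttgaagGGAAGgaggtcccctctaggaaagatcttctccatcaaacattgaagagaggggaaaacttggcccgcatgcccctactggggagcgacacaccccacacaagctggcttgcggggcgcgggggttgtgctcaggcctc

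Within Satb1, a stretch from 51812732 to 51814641 was called in every library, but in different places. EpCAM-positive replicate 1 had its peak at region 3 with 14 summit fragments. EpCAM-positive replicate 2 and both EpCAM-negative libraries shared region 4 (18, 16 and 13 fragments), and EpCAM-positive replicate 2 also called region 5 with 18. Above the gene, region 8 at chr17:51906241-51906950 had 16 and 15 against 14 and 9 fragments (log2 difference 0.15, 95% interval -0.47 to 0.77). Region 7, 46349 bp above the gene, had 10 fragments in EpCAM-positive replicate 1, 14 and 11 in the EpCAM-negative libraries and no peak in EpCAM-positive replicate 2. Satb1 had no group-only region.

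Zeb1 had 2 open regions at the lower-coordinate end of the gene and 5 of 9 regions called in all 4 libraries, the highest share of the 5 loci. It occupies chromosome 18 from 5591327 to 5775468 (gene ID 21417). Region 1, 238 bp inside that end, had 42 and 34 summit fragments in EpCAM-positive cells against 29 and 23 in EpCAM-negative cells. The scaled values, 38.4 and 30.2 against 31.9 and 25.8, overlap, with a log2 difference of 0.24 (95% interval -0.26 to 0.74, limma adjusted p = 0.74). Region 3, 2626 bp inside the same end, had 39 and 37 against 24 and 33 (log2 difference 0.13). Region 4, 12422 bp inside, had 15 and 17 against 11 and 13 (log2 difference 0.11).

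Farther along Zeb1, 2 regions leaned the other way without passing the test. Region 7, at chr18:5650537-5651025, had 12 and 20 summit fragments in EpCAM-positive cells against 17 and 20 in EpCAM-negative cells. Its scaled values did not overlap, and the log2 difference was -0.52 (95% interval -1.12 to 0.09, limma adjusted p = 0.468). Region 9, at chr18:5819581-5820215 and 44468 bp above the gene, had 17 and 7 against 14 and 17. Its log2 difference of -0.73 had an unadjusted limma p of 0.0315 and an adjusted p of 0.316, and it was -0.13 without EpCAM-positive replicate 2, the low library, and -1.33 without EpCAM-positive replicate 1. Regions 2, 5, 6 and 8, all inside the gene, were called in 1 or 3 libraries with 10 to 22 fragments.

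Zeb1 and Zeb2 had more peaks and more covered bases in both EpCAM-positive libraries. Zeb1 had 8 and 8 peaks over 3361 and 3376 bp in EpCAM-positive libraries, and 6 and 5 peaks over 2590 and 1825 bp in EpCAM-negative ones. Zeb2 had 5 and 5 peaks over 2733 and 2602 bp against 4 and 3 over 1596 and 1343 bp. Tox had fewer peaks in both EpCAM-positive libraries (7 and 6 against 8 and 9), while its covered bases overlapped between the fractions (3037 and 2663 against 2424 and 2904 bp). Satb1 had 4 and 5 peaks in each fraction, and Tox2 had 12 and 8 against 6 and 10. For Tox, Zeb1 and Zeb2 the two-sided exact permutation p was 0.33, the smallest this design allows. The 5 loci together held 34.0 ± 2.83 peaks per EpCAM-positive and 30.0 ± 2.83 per EpCAM-negative library (SD, n = 2 each, exact permutation p = 0.67). Whole lists covered 12.9 Mb in each EpCAM-positive and 10.8 and 10.6 Mb in the EpCAM-negative libraries, a difference in the same direction.

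**Figure D2:**
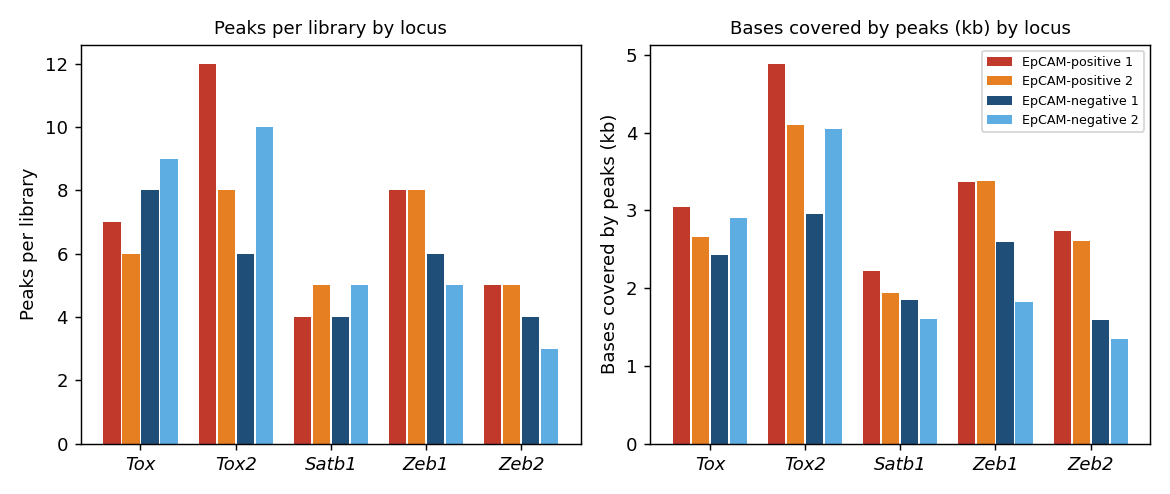
Peaks per library (left, count) and bases covered by those peaks (right, kb) in the gene span plus 100 kb of each locus, as 1 bar per library. At Zeb1 and Zeb2 both EpCAM-positive bars stand above both EpCAM-negative bars in each panel, and at Tox the peak counts have the reverse order.

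The local background at the lower-coordinate end of Zeb1 was high in the EpCAM-positive libraries. Its ratio of EpCAM-positive to EpCAM-negative was 1.83, 1.84 and 1.78 at regions 1, 3 and 4, at percentiles 94.2, 94.5 and 92.7 of all regions called in 4 libraries (median 1.38, quartiles 1.23 and 1.54). At region 7 of the same gene it was 1.07, at percentile 7.5. The highest ratio among the member regions called in 4 libraries was not at Zeb1 but at Tox2 region 4 (2.07, at percentile 98.4). These values are descriptions of the lists and were not tested.

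Zeb2 had a region over an inner start and none over its outermost one. It occupies chromosome 2 from 44983512 to 45117442 (gene ID 24136), and its window held 6 regions, 3 of them in all 4 libraries. RefSeq lists 4 start windows, all on the minus strand. Only the innermost, around a start at 45110277, overlapped a region, namely region 6 at chr2:45109847-45110689, which contained the whole window. The outermost window, around 45117442, was 6704 bp from the nearest region of any library, and the other 2 were 2515 and 2541 bp away.

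Region 6 had 19 and 19 summit fragments in EpCAM-positive cells against 13 and 18 in EpCAM-negative cells. The scaled ranges overlapped, and the log2 difference was 0.01 (95% interval -0.58 to 0.60, limma adjusted p = 0.992). Peaks covered 681 and 630 bp of it in the EpCAM-positive libraries and 246 and 367 bp in the EpCAM-negative ones, and the 4 summits were up to 615 bp apart. The EpCAM-negative replicate 1 peak, 246 bp wide with its summit at 45109900, ended below the start window, which begins at 45110228. The local background ratio was 1.88, at percentile 95.6.

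Both Zeb2 sequences are shown to set the open start beside the one without a peak; capitals mark matches to GGAAG, to GGGCGG or to CCAAT, the CCAAT box, on either strand. The open one holds 1 match to GGAAG and 1 to GGGCGG, and 57.6% of its bases are G or C. The other holds 1 match to GGAAG and 2 to CCAAT, with 49.6% G or C, against a median of 52.4% over all windows. GGAAG occurs in 64.1%, GGGCGG in 32.7% and CCAAT in 33.8% of the 32851 windows of this length.
Zeb2 inner start, chr2:45110278-45110527, minus strand: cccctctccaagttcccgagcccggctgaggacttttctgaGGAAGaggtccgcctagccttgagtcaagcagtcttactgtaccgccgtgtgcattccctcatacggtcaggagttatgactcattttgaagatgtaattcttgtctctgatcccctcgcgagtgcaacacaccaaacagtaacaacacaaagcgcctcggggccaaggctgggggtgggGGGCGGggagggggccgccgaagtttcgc
Zeb2 outermost start, chr2:45117443-45117692, minus strand: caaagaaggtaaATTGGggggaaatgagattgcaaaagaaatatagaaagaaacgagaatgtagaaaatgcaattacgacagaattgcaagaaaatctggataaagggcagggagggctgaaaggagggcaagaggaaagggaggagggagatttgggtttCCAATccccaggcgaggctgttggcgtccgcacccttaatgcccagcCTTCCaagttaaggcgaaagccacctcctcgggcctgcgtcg

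Both strands of the 4 sequences shown were also searched for other short motifs. The letters used were TGTGGT for RUNX factors and CTTTGA for TCF1 and LEF1. For GATA factors, which include the T lineage factor GATA3, they were AGATAA. E-boxes were searched as CAGCTG and, in the form that ZEB proteins bind, as CACCTG, and the TATA box as TATAAA. These 6 motifs had no match in these windows, and each occurs in 10.0% to 17.2% of all windows of 250 bases. The capitals at Tox2 include 2 overlapping GC boxes. RefSeq start windows of Tox and Zeb1 were not used here.

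The other regions of Zeb2 were at a distance or within the gene. Region 4, at chr2:45044628-45045096 inside the gene, had 19 and 12 summit fragments against 9 and 12 (log2 difference 0.22, 95% interval -0.41 to 0.85). Region 1, at chr2:44926353-44927679, was the tallest of the window with 84 and 75 against 70 and 67. It lay 56368 bp below Zeb2 and 573 bp from the end of another gene, Gtdc1. Its scaled values were 76.82 and 66.54 against 76.99 and 75.09, with a log2 difference of -0.09 (95% interval -0.46 to 0.28). Without scaling that difference was 0.21. Regions 2, 3 and 5 were each called in 1 EpCAM-positive library, with 11, 7 and 17 fragments, and Zeb2 had no group-only region.

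Ordered by height over all libraries, the regions at the gene starts or ends described above ran from Satb1 (39.6 to 53.2 scaled summit fragments) through Zeb1 (25.8 to 38.4), Tox (23.5 to 29.3) and the inner start of Zeb2 (14.3 to 20.2) to Tox2 (8.8 to 12.3, with 3 libraries calling it). Zeb1 and Tox overlapped in this order, and the other neighbours did not. At Zeb2 the values are those of region 6, whose peak in EpCAM-negative replicate 1 did not reach the start window. Compared with all regions called in 4 libraries, Satb1 region 6 was at percentile 73.0 of mean height, Zeb1 region 1 at 55.9, Tox region 12 at 46.0 and Zeb2 region 6 at 25.1.

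The 18 shared regions together gave 1 call lower in EpCAM-positive libraries, at Tox, and 0 calls higher, by limma. Over all regions called in 4 libraries the shares called were 0.322% lower and 0.215% higher. An unadjusted p under 0.05 was reached by 2 of the 18, against 13.3% of all. Groups did not overlap with EpCAM-positive higher in 2 and with EpCAM-negative higher in 3, against 21.7% of all regions in each direction. The median log2 difference was 0.10, against 0.00 over all regions called in 4 libraries, and 12 of 18 were above 0, against 50.5%. Of the 18, 10 lay within the gene span and 8 outside it.

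**Figure D3:**
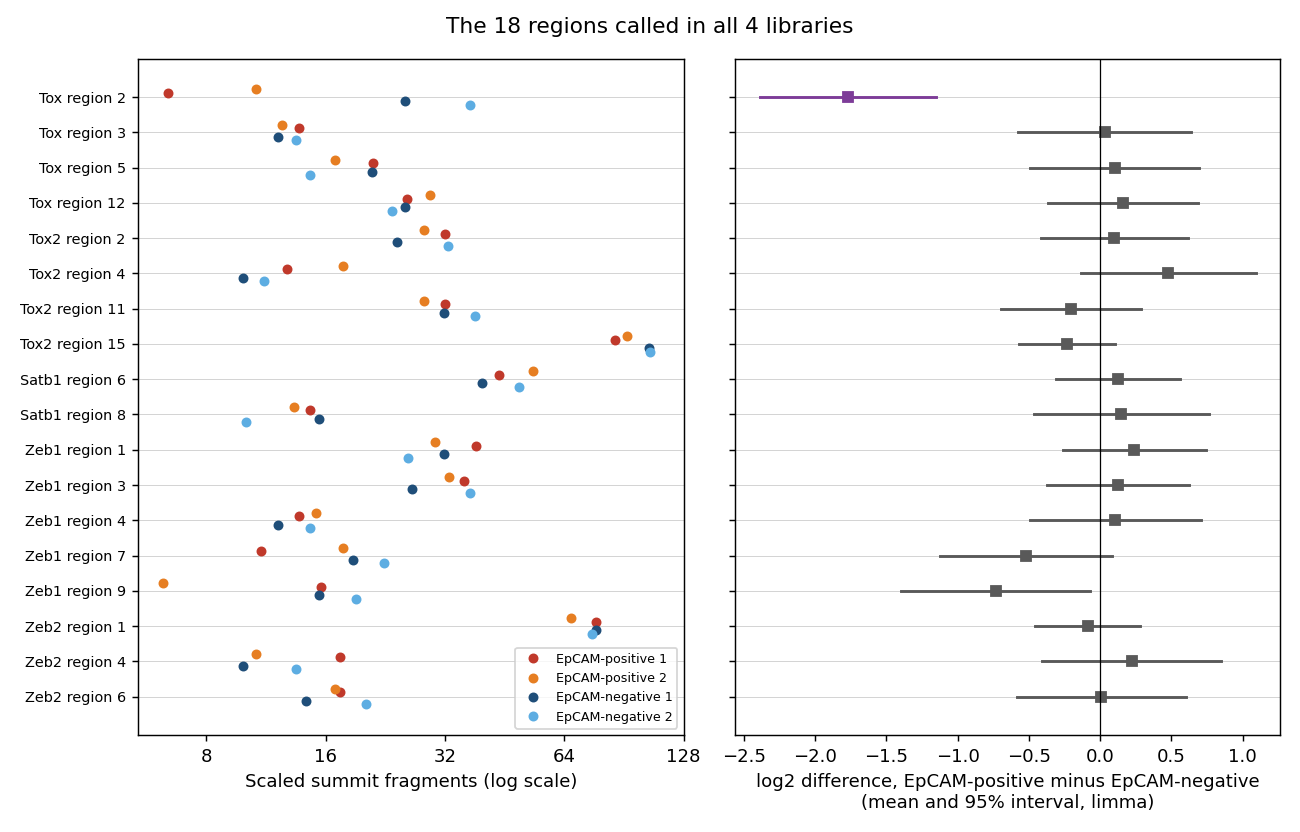
The 18 member regions called in all 4 libraries. The left panel gives scaled summit fragments on a log axis, 1 point per library, and the right panel the log2 difference, EpCAM-positive minus EpCAM-negative, with its 95% interval from limma. Only the interval of Tox region 2, from -2.39 to -1.15, belongs to a call.

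**Figure D4:**
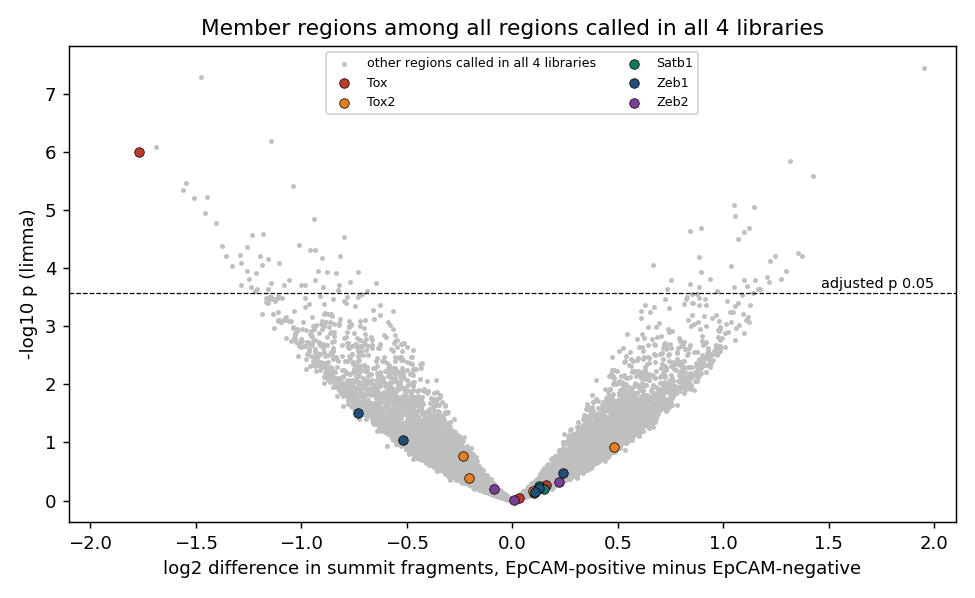
Log2 difference in summit fragments (x axis) against −log10 p from limma (y axis) for 16761 regions called in all 4 libraries, with the 18 member regions coloured by gene. The dashed line marks an adjusted p of 0.05, and Tox region 2 is the leftmost point of the plot.

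Per 100 kb of window, regions called in all 4 libraries numbered 1.3 at Zeb1, 1.25 at Tox2, 0.9 at Zeb2, 0.79 at Tox and 0.67 at Satb1. The median over protein-coding genes was 1.28, and over genes of similar span (within 1.5 times) 0.62, 0.98, 0.93, 0.4 and 1.08 in the same order. Zeb1, Tox and Tox2 thus lay above the median density for their length and Satb1 below it, while Zeb2, with 3 shared regions, had the median number. Counts of peaks per library were too coarse to name genes with a like pattern: 8 genes of similar span had exactly the counts of Satb1.

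Among 20 other factors of T lineage development, 148 regions in their windows were called in all 4 libraries, of which 2 were called higher and 1 lower in EpCAM-positive libraries by limma (median log2 difference -0.08). These 3 lay in the windows of Lef1, Id3 and Notch1. Among 17 genes near which the members are known to act, including Rag1, Cd4, Cd8a and Cdh1, 67 were called in all 4 libraries, with 0 higher and 1 lower by limma (median 0.10). That region lay in the window of Havcr2. Over all regions called in 4 libraries, limma called 0.215% higher and 0.322% lower.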

How the data were processed

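ATAC-seq peak lists of 4 libraries, 2 per fraction, were used. The submitters' processing notes name mm10 and GRCm38 as builds and MACS3, Bowtie2, Trimmomatic and Trim Galore, Picard, SAMtools, deepTools, bedtools and FastQC as tools, without roles. The sources used here do not give settings. Each deposited list holds, per peak, a score, a fold enrichment (ratio) over local background, −log10 p, −log10 q and the summit position. Read depth is unknown, so no counting interval is given.

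The fold and the −log10 p of a Poisson test, both deposited, were solved together for summit pileup and local background, at a tolerance of 0.01 on −log10 p, with at most 3 peaks per list unsolved. Whether the caller piled up reads or fragments is not stated, and they are called fragments here. A solved pileup is no deposited count, so no count model was used. Peaks were merged at an overlap of at least 1 bp. Libraries were scaled by their median ratio over regions called in all 4, and log2 of scaled fragments plus 1 was fitted with limma 3.58.1 (R 4.3.3, variance trend), with Benjamini-Hochberg adjustment over 16761 regions at 0.05. The fit was also run on simulated fragments with counting noise only. That run cannot show how the fit handles spread between animals or preparations. These regions had to be called in every library, which leaves out regions lost from a fraction.

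Named regions are, per gene, the 3 shared regions of highest −log10 q, those at gene ends, group-only regions and calls; other member regions were added after their values were seen. Members and lists were chosen with earlier results of these data known. Gene spans come from RefSeq GRCm38.p6, the assembly of mm10. Alternatives covered scaling, pseudocount, filters, summit distance, variance trend, a replicate block, peak thresholds, merging, window size and each library left out; quantile normalization was added after seeing the data. A gene of the lists is not reported here.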

Additional observations from a re-analysis of the deposited data

How the results depend on the processing

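Quantile normalization was chosen after seeing the data. The 90 calls over all regions became 204 with background scaling, 38 with a mean of at least 20 fragments, and 0 by limma without scaling, without the variance trend and after quantile normalization (4226, 2136 and 1933 regions at an unadjusted p under 0.05). They ranged from 11 to 188 with 1 library left out. The 1 member call became 0 in those 3 settings, 0 with a mean of at least 20 fragments, which leaves Tox region 2 untested, and 0 to 1 with 1 library left out. Where a fraction kept 1 library, it was assumed to vary like the other. The replicate block gave 755 calls and kept Tox region 2 (limma adjusted p = 3.78e-06). Differences between replicates 1 and 2 correlated between the fractions at 0.165, over the 16761 regions called in all 4 libraries. The labels do not pair same-numbered libraries. EpCAM-positive-only regions became 1 at a −log10 q of at least 5, 1 with lists of equal length, 1 when merged within 500 bp, 1 in the gene span only and 3 to 11 with 1 library left out; over all regions their share, 4.4%, became 4.84%, 3.3% and 4.34% in the first 3 of these settings and 7.67% to 14.8% with 1 library left out. EpCAM-negative-only regions numbered 2 in the peak, merging, coverage and window settings, but not always the same 2. At a −log10 q of at least 5, Tox2 region 10 was lost, and Satb1 region 7 lost its EpCAM-positive call (−log10 q of 4.62). Their share of all regions was 1.48% there, 2.44% with lists of equal length, 1.74% when merged within 500 bp and 1.89% with 50% coverage. EpCAM-negative-only regions numbered 3 to 6 with 1 library left out (3.19% to 8.81% of all regions, against 1.72%). Regions called in every library numbered 12 with 50% coverage, 10 in the gene span only and 19 to 21 with 1 library left out. Over the whole series, 50% coverage left 13565 regions called in every library, against 16761. In that setting 3 member regions were EpCAM-positive-only, and 6.26% of all regions. Median log2 over all regions moved to 0.29 without scaling and -0.11 with background scaling. Signs turned for uncalled regions: with background scaling, Tox region 3 (-0.08), Tox region 5 (-0.009), Tox2 region 2 (-0.015), Zeb1 region 4 (-0.003) and Zeb2 region 6 (-0.10); after quantile normalization, Zeb2 region 6 (-0.002); without scaling, Tox2 region 11 (0.089), Tox2 region 15 (0.065) and Zeb2 region 1 (0.21). With 1 library left out, ranges crossed 0 for Satb1 region 6 (-0.028 to 0.28), Satb1 region 8 (-0.13 to 0.43), Tox region 3 (-0.04 to 0.10), Tox region 5 (-0.14 to 0.35), Tox2 region 2 (-0.10 to 0.31), Zeb1 region 3 (-0.11 to 0.36), Zeb1 region 4 (-0.017 to 0.23), Zeb2 region 1 (-0.19 to 0.015), Zeb2 region 4 (-0.11 to 0.55) and Zeb2 region 6 (-0.23 to 0.24). The cause of these shifts was not tested.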
